A study of Mus musculus with 2 samples.

Results

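Fatty acid elongases and desaturases were examined in the skin of Pla2g2f-transgenic mice. The family comprised 10 genes, Scd1, Scd2, Scd3, Fads1, Fads2, Elovl1, Elovl3, Elovl4, Elovl5 and Elovl6. The array's gene names and accessions matched them to 11 probes of 41167, with 2 probes for Elovl5 and 1 for each other gene. Of the 10 genes, 7 had a probe that array 1 measured well above background for the transgenic or the control pool, among 10454 genes measured in all. Total RNA came from the skin of 25-day-old Pla2g2f-Tg/+ mice and of littermate controls, both on a C57BL/6 background and fed a standard low-fat diet, with 4 mice pooled per genotype. Which promoter drives the transgene is not stated in the labels. Transgenic and control RNA were hybridised together on 2 two-colour arrays, with the transgenic pool in Cy5 on array 1 and in Cy3 on array 2.

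Nothing in the labels gives either array a pool of its own, so both count as 1 replicate of the pools. The SD beside a value is the technical spread between the arrays, so the design allows no p-value over animals. A gene was called higher or lower when both arrays put it at least 2-fold away from equality on the same side, and "rose" is used below only of such genes. Between the arrays the median absolute difference of the log2 ratios was 0.24 over 13339 probes. Over 10 probes printed 10 times, the median SD between spots was 0.09 on array 1 and 0.10 on array 2. Pla2g2f itself gave a signal of 683 in the transgenic channel and 471 in the control channel of array 1. Its log2 ratios of 0.54 and 0.34 (1.36-fold) were not called, and with the spike-in offset described below they were 0.08 and -0.12, with no excess on average (-0.019). The probe therefore gave no clear check of the labels, and whether the transgene holds its sequence is not stated in them. The pool is called transgenic here as labelled. Signals of the epidermal keratin Krt14 on array 1 were 40721.5 in the transgenic channel and 18418 in the control channel, so the defining keratin of skin epithelium was present in both pools. The arrays' own scaling was used. The 10 spike-in RNAs well above background had log2 ratios of transgenic over control, averaged over both dye orientations, between 0.44 and 0.51, whereas the median gene lay at -0.0079. On the scale of the spike-ins every log2 ratio below is lower by 0.46, and the named genes whose call changes there are given in the same paragraph as the gene. Krt14 is one of them, at 0.69 and 0.63.

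Desaturases introduce unsaturated bonds into fatty acyl chains, and elongases add carbon pairs to them. Together they set the chain length and the fluidity of the lipids of a cell. In skin, sebaceous glands use these enzymes to make the wax and sterol esters of sebum, and the upper epidermis uses them to make the very long and ultra-long acyl chains of barrier ceramides. Scd1, Scd2 and Scd3 turn saturated into monounsaturated long chains, and Fads1 and Fads2 make polyunsaturated chains. Elovl6 makes stearate from palmitate, Elovl5 elongates polyunsaturated chains, Elovl1 and Elovl3 make saturated and monounsaturated very long chains, and Elovl4 makes ultra-long chains. In mouse skin Scd1, Scd3 and Elovl3 are known from sebaceous glands, Elovl1 and Elovl4 from the epidermis, and the others are widely expressed.

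The values of each gene rest on a probe of 60 bases. The 30 bases of each probe that hold its longest run in common with a probe of another gene of the family are shown, with that run in capitals, so that the probes of close relatives can be compared.
Scd1 probe, bases 1 to 30 (chr19:44448208-44448267, minus strand, mm8): acTCCTGGgctaagtatctgacagtctcac
Scd2 probe, bases 1 to 30 (chr19:44359845-44359904, plus strand, mm8): ACATTTGgggatcctctgcagaggagtatt
Scd3 probe, bases 4 to 33 (chr19:44295524-44295583, plus strand, mm8): agggtaggtgtcTCAAGCCaaatccaacca
Elovl6 probe, bases 28 to 57 (chr3:129630352-129630411, plus strand, mm8): gaaaattcactaTCAAGCCtcacagcgaaa
Elovl5 probe, bases 7 to 36 (chr9:77770082-77770141, plus strand, mm8): acaaaaattataACATTTGatagtgtgctg
Elovl3 probe, bases 6 to 35 (chr19:46188583-46188642, plus strand, mm8): ggtaggcgcttaATAAATGtcttttacaga
Elovl1 probe, bases 24 to 53 (chr4:117930352-117930411, plus strand, mm8): ctttctcctcaCACTGAAGAggtcagcaat
Elovl4 probe, bases 1 to 30 (chr9:83575756-83575815, minus strand, mm8): tTTTTACAcagattaatttgttatgggcgt
The longest such run was 9 bases, between the Elovl1 and Fads2 probes. The Scd1 probe shared 6 bases with the Scd3 probe and 6 with the Scd2 probe, and the Scd2 and Scd3 probes shared 5. Aligned end to end, the Scd1 and Scd2 probes were identical at 13 of 60 positions. The transcripts themselves were not compared with the probes, so signal from a relative's transcript was not tested. Whether a probe lies in a coding exon or in a UTR was not annotated in the files.

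Expression of 5 of the 7 measured enzymes, Scd1, Elovl3, Elovl4, Elovl5 and Elovl6, rose in transgenic skin, each by 3.06-fold to 5.40-fold. Elovl1 and Scd2 were not called. Over all genes measured, 3.72% were higher and 1.68% lower by the same rule. The median log2 ratio of the 7 enzymes was 2.01, against -0.0079 for all genes measured. The filter needs signal in only 1 pool, and all 7 were well above background in both. Fads1, Fads2 and Scd3 were not well above background in either channel of array 1. In whole skin, more cells of a type and more RNA per cell cannot be told apart.

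**Figure D1:**
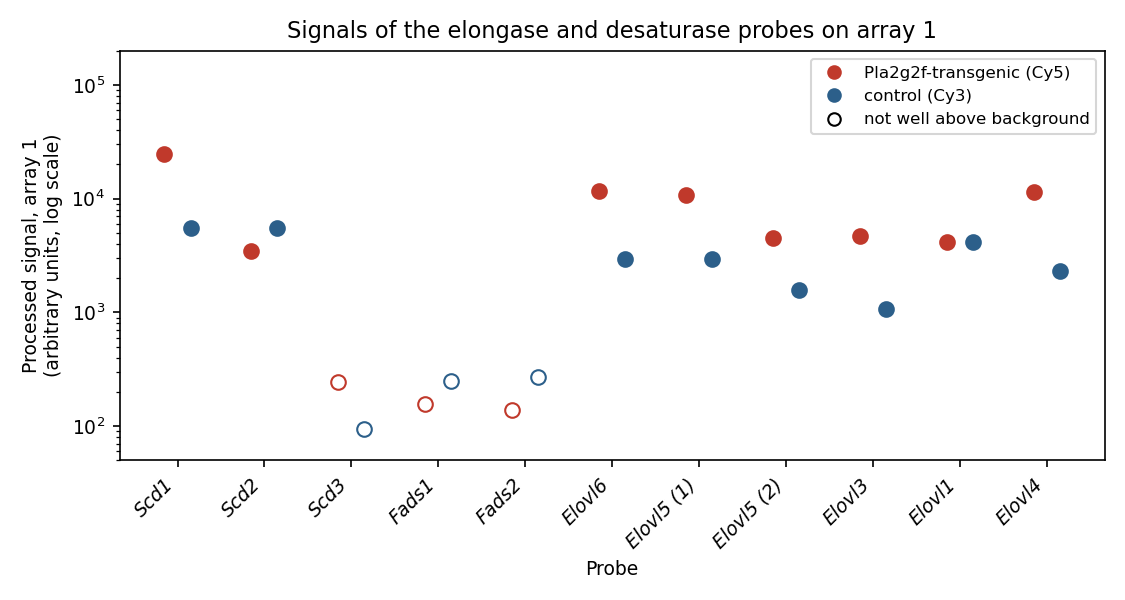
Processed signal of each of the 11 probes on array 1 (log scale, arbitrary units), transgenic channel in red and control channel in blue, with hollow symbols for values not well above background. The probes of Scd1, Elovl3, Elovl4, Elovl5 and Elovl6 lie higher in the transgenic channel, that of Scd2 lies lower, and that of Elovl1 lies level.

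Among the desaturases of saturated chains, Scd1, the main enzyme of oleate synthesis in skin, gave a signal of 24640.0 in the transgenic channel and 5510.5 in the control channel of array 1. Its log2 ratios were 2.16 on array 1 and 2.004 on array 2, a mean of 2.08 ± 0.11 (SD, n = 2 arrays), or 4.24-fold higher. Scd1 ranked 74th from the highest of 10454 genes. Both arrays placed it far above the size threshold, and the pools differed by much more than the arrays did.

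Scd2, a paralogue expressed in many tissues and needed for the lipid barrier of newborn mouse skin, gave 3439 in the transgenic channel and 5516 in the control channel. Its log2 ratio was -0.68 on each array, 1.60-fold lower in transgenic skin. This did not reach the size threshold on the arrays' own scaling. With both arrays shifted by the spike-in offset it lay at -1.14 and was called lower, the only measured enzyme to be so (1 of 7). By that scaling 4.37% of all genes measured were lower and 1.68% higher. Scd1 and Scd2 lie in 1 cluster on chromosome 19, with their probes 88.4 kb apart on mm8. The log2 ratio of Scd1 exceeded that of Scd2 by 2.84 on array 1 and by 2.69 on array 2, and a constant offset leaves this gap unchanged. With array 1 from normexp and loess, a setting described below, the gap was somewhat smaller. The means of Scd1 and Scd2 were then 1.99 and -0.62.

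Scd3, known in the mouse from sebaceous and Harderian glands, gave 245 in the transgenic channel and 94.9 in the control channel, neither well above background. Its log2 ratios of transgenic over control were above 0 on both arrays but differed by 1.14 log2 units between them. No fold was drawn from it. Scd4, the remaining gene of the cluster and a paralogue known from mouse heart, had 2 probes, with 106 and 108 in the transgenic channel and 105 and 103 in the control channel. The cluster thus held a member that rose, a member below 0 on both arrays and a pair without measurable signal.

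The desaturases of polyunsaturated fatty acids were both dim. Fads1, which makes arachidonate, gave 156 in the transgenic channel and 247 in the control channel. Fads2, which starts the conversion of linoleate and in human sebaceous glands makes sapienate, gave 139 in the transgenic channel and 272 in the control channel. Both lay lower in the transgenic channel and had log2 ratios of transgenic over control below 0 on both arrays, but neither was well above background, so no difference was detectable at this signal. The probe of Fads2 spans 431 bases of chromosome 19, from 10131305 to 10131735 on mm8, more than its own length. Fads3, their neighbour, of uncertain activity towards common fatty acids, was measured at log2 ratios of -0.32 and -0.46 and was not called.

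Elongases of long chains were higher. Elovl6, which extends palmitate, gave 11779.6 in the transgenic channel and 2928 in the control channel, with log2 ratios of 2.01 and 2.12 (mean 2.07 ± 0.08, SD, n = 2 arrays), 4.19-fold higher. Elovl5, which extends polyunsaturated chains, gave 10769 in the transgenic channel and 2939.5 in the control channel with its brighter probe. The log2 ratios of that probe were 1.87 and 1.35 (mean 1.61 ± 0.37, SD, n = 2 arrays), 3.06-fold higher. The second Elovl5 probe gave 1.54 and 1.40. All 4 values of Elovl5 thus passed the threshold, with a wider gap between the arrays for the brighter probe than for any other measured enzyme. With the spike-in offset Elovl5 lay at 0.89 on array 2 and was no longer called.

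Elongases of very long chains differed among themselves. Elovl3, whose loss disturbs sebum and hair in mice, gave 4661 in the transgenic channel and 1065 in the control channel. Its log2 ratios were 2.13 and 1.89 (mean 2.01 ± 0.17, SD, n = 2 arrays), 4.03-fold higher. Elovl1, which is needed for the skin barrier of mice, gave 4174 in the transgenic channel and 4180.2 in the control channel. Its log2 ratios of -0.0021 and 0.16 (mean 0.08 ± 0.12, SD, n = 2 arrays) lay within the spread between the arrays of 0. With the spike-in offset its mean was -0.38, still not called.

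Elovl4, which makes the ultra-long chains of acylceramides and whose loss is lethal to newborn mice through the skin barrier, gave 11500.1 in the transgenic channel and 2327 in the control channel. Its log2 ratios were 2.30 and 2.56 (mean 2.43 ± 0.18, SD, n = 2 arrays). At 5.40-fold it was the highest of the 7 measured enzymes on both arrays and ranked 42nd of 10454 genes. The log2 ratio of Elovl1, the other epidermal elongase, minus that of Elovl4 was -2.31 on array 1 and -2.40 on array 2.

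**Figure D2:**
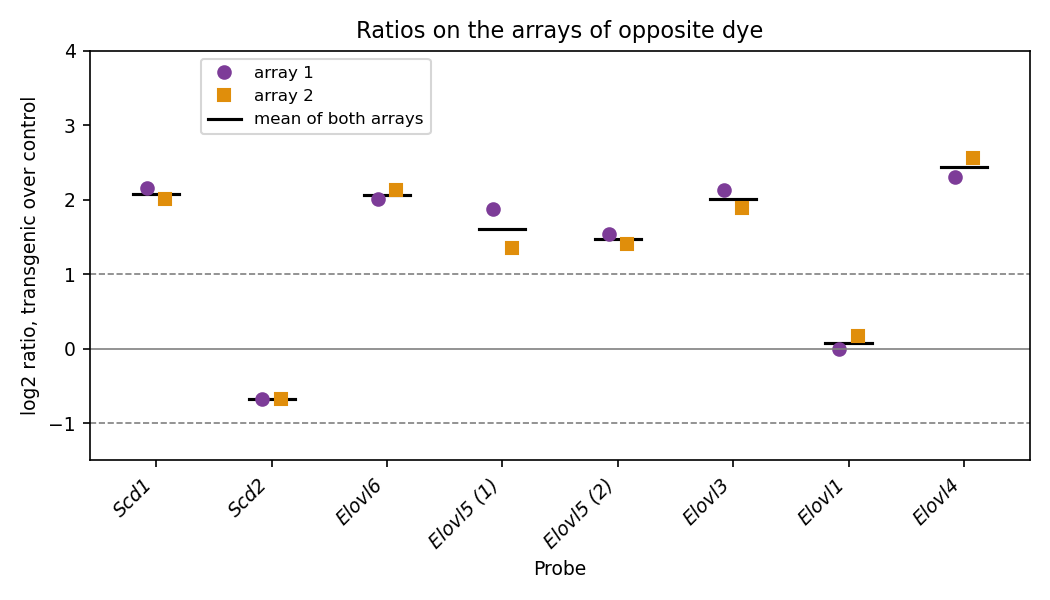
Log2 ratio of transgenic over control for each probe well above background, as a circle for array 1, a square for array 2 and a bar for their mean, with dashed lines at 2-fold. Scd1, Elovl6, Elovl5, Elovl3 and Elovl4 lie above the upper line on both arrays, Elovl1 lies at 0 and Scd2 at -0.68.

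Elovl4 was the highest of the 5 higher enzymes and Elovl5 the lowest on each array. The means of Scd1, Elovl6 and Elovl3, 2.08, 2.07 and 2.01, were closer together than their own arrays, and their order changed from array to array. By tissue of known expression, 2 of 2 measured sebaceous enzymes rose, as did 1 of 2 epidermal and 2 of 3 widely expressed ones. By product, the classes of monounsaturated, polyunsaturated, very long and ultra-long chains each held an enzyme that rose. For polyunsaturated chains this was Elovl5 alone, as Fads1 and Fads2 were dim, with log2 ratios below 0 on both arrays. The classes of monounsaturated and of very long chains each held 1 enzyme that rose and 1 that was not called. With the spike-in offset no polyunsaturated enzyme (0) was called. The widely expressed class then held 1 higher and 1 lower enzyme of 3 measured. Neither grouping separated the enzymes that rose from those that did not.

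**Figure D3:**
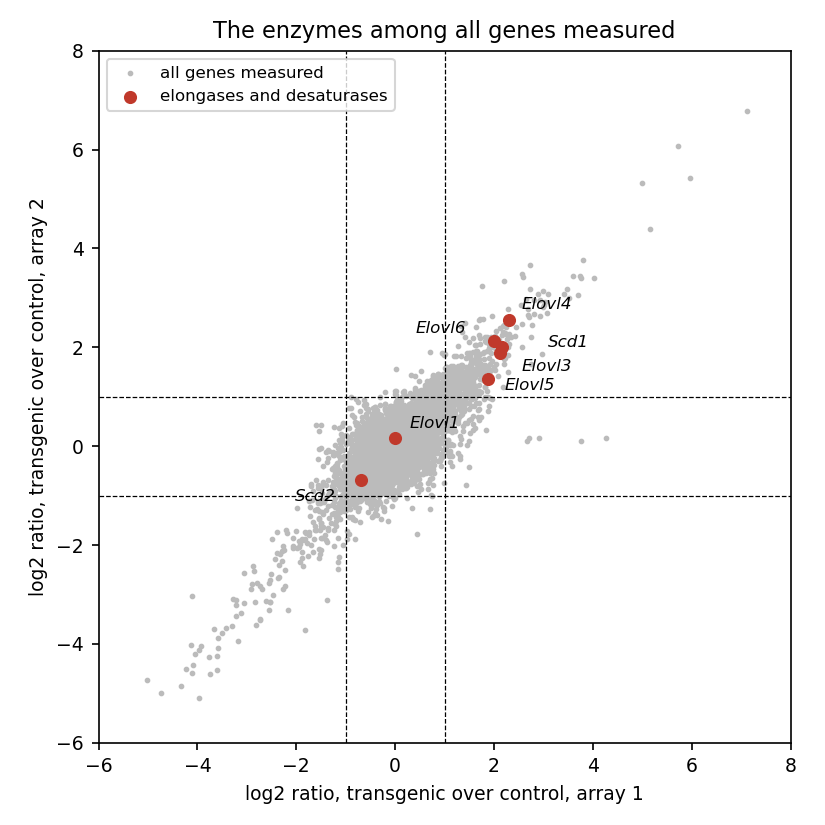
Log2 ratios of transgenic over control on array 1 (horizontal) and array 2 (vertical) for 10454 genes in grey, with the 7 measured enzymes in red and dashed lines at 2-fold. Scd1, Elovl3, Elovl4, Elovl5 and Elovl6 lie in the upper right corner, while Elovl1 and Scd2 lie within the main cloud.

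Promoters of the higher enzymes were read for motifs of lipid regulators, as background to genes that moved together. Of the 10 genes, 6 had an entry in the RefSeq promoter table (GRCm38.p6): Elovl1, Elovl4, Elovl5, Elovl6, Fads2 and Scd3. The 250 bases before the start site of the 3 higher ones are shown, with every match to a searched motif in capitals.
Elovl5 promoter (chr9:77917115-77917364, plus strand, GRCm38.p6): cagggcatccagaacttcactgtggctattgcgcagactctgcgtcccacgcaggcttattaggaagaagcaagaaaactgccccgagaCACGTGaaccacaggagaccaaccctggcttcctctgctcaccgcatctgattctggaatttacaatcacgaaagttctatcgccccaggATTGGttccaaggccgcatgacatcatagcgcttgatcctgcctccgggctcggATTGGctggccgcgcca
Elovl6 promoter (chr3:129532136-129532385, plus strand, GRCm38.p6): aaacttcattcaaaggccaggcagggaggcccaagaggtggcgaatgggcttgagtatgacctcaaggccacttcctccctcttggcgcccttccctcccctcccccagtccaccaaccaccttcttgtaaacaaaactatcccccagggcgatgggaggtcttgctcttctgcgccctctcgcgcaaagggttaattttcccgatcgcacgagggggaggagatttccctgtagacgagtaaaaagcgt
Elovl4 promoter (chr9:83806306-83806555, minus strand, GRCm38.p6): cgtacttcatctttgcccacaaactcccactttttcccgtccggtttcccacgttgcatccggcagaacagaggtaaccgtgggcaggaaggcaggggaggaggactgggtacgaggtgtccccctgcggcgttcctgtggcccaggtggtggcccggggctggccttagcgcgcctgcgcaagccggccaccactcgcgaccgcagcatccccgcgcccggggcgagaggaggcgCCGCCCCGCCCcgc
The letters searched on both strands were TCACNCCAC, a form of the sterol regulatory element, and CCAAT, which NF-Y binds. The E-box was searched as CACGTG and the GC box as GGGCGG. The fifth motif was the TATA box, with the letters TATAAA. The sterol form was absent from all 3 windows, and 1.05% of 32851 windows of that length held it. Elovl5 held CCAAT at 2 places and the E-box at 1, motifs found in 33.8% and 6.02% of windows. Elovl4 held 2 overlapping GC boxes, a motif found in 32.7% of windows. Elovl6 held none (0) of the 5 motifs. The window of Elovl1 that holds a CCAAT match (it has 2 start sites in the table) also held 5 GC boxes. Of these, 1 overlaps the CCAAT match. Elovl1 was not called, and this window had more matches than any of the 3 windows shown. Its GC content was 72.0%, against a median of 52.4% over all windows. The TATA box, found in 12.4% of windows, was absent from all windows of the family, as was the sterol form. Fads2 held 1 GC box and Scd3 none (0) of the motifs. The 3 higher genes shared no searched motif in these windows.

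Among relatives outside the 10 genes, Elovl7, a further elongase, had log2 ratios of 1.11 and 0.98 and missed the rule on array 2. Degs1, which desaturates dihydroceramide to ceramide, rose 2.20-fold. Of the 7 further elongases and desaturases listed, 3 were measured and 1 rose. No listed relative (0) was lower by the rule. With the spike-in offset Degs1 was no longer called.

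Each elongation cycle needs a reductase, a dehydratase and a second reductase beside the elongase. Of 5 measured partners, 2 rose. Hacd2, a dehydratase, had log2 ratios of 1.66 and 1.67, and Hsd17b12, the ketoacyl-CoA reductase, 1.34 and 1.58. Hacd3, a further dehydratase, lay at 0.89 and 0.45 and was not called. Tecr, the second reductase (named after its value was seen), lay at -0.18 and 0.69 and was not called. The list's median was 0.67, and with the spike-in offset Hacd2 alone was still called. Electron donors of the desaturases were not called in any of 5 cases (0 higher, 0 lower). Cyb5b and Cyb5a, forms of cytochrome b5, had mean log2 ratios of 0.85 and 0.63, and their reductase Cyb5r3 one of 0.37. The median of the electron donors was 0.37, and it turned to -0.09 with the spike-in offset.

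Enzymes that supply the substrate were counted next. Of 9 measured genes of de novo fatty acid synthesis, 6 rose and 3 were not called, with a median log2 ratio of 1.30 (0.84 with the spike-in offset, where 2 were called). Acacb, an acetyl-CoA carboxylase, rose 3.96-fold, Acss2, which makes acetyl-CoA from acetate, 3.15-fold, and Slc25a1, the mitochondrial citrate carrier, 3.05-fold. Acaca, the other acetyl-CoA carboxylase of the list (named after its value was seen), had 0.09 and 0.69 and was not called. Slc25a1 lost its call with the spike-in offset, at 0.98 on array 1. With array 1 from normexp and loess, a setting described below, that array gave 1.48 for Acacb, 0.69 for Acss2 and 0.60 for Slc25a1. Acss2 and Slc25a1 were then not called. Of 8 measured acyl-CoA synthetases and carriers, 5 rose, with a median of 1.23. Acsl1 and Acsl5, which activate long-chain fatty acids, rose 2.99-fold and 2.62-fold, and with the spike-in offset both lost their call, at 0.97 on array 2 for Acsl1 and 0.70 on array 1 for Acsl5. Slc27a4, a fatty acid transporter needed for the epidermal barrier, had a mean log2 ratio of 2.47. Its control signal was not well above background on array 1. Taking the lowest signal well above background (199) for the control gives 3.001-fold there, on 1 array open to dye bias. That level is no ceiling for a dim spot, since the dim control signal of Fads2 was 272, so 3.001-fold is not a lower limit. With the spike-in offset 1 of the 8 was called higher and 1, Acsl3, lower (named after its value was seen). From normexp and loess array 1 gave 1.57 for Acsl1, 0.77 for Acsl5 and 0.54 for Slc27a4. Of these, Acsl1 alone kept its call.

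Most regulators of these genes were not called, like most genes measured, of which 3.72% were higher. Of 11 measured, 1 rose, Pparg, a nuclear receptor of sebocytes and fat cells, at 2.22-fold. Nr1h3, the oxysterol receptor LXR alpha, had log2 ratios of 0.98 and 1.31, with its control channel dim on array 1, and was not called. Srebf1, the sterol-regulated factor that controls fatty acid synthesis, had 0.63 and 0.69 and was not called. The median of the regulators was 0.37, and it turned to -0.08 with the spike-in offset, where none (0) was called.

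Enzymes that use the products were counted by destination. Of 9 measured genes of sebum lipid assembly, 5 rose, with a median of 1.66 (1.21 with the spike-in offset, where 4 were called). That median is the value of Dgat1, which makes triglycerides and whose control channel on array 1, at 236, was not well above background, so it entered through the transgenic channel alone. Dgat1, named after its value was seen, lost its call with the offset. Cidea, which coats lipid droplets, rose 5.39-fold. Fa2h, which hydroxylates acyl chains, rose 6.69-fold, and Soat1, which esterifies cholesterol, 4.74-fold. Of 7 measured genes of epidermal barrier lipid assembly, 2 rose. Cers4, a ceramide synthase, rose 4.78-fold, while Cers3, the other ceramide synthase of the list, had no probe. Abca12, which loads lipids into lamellar granules, had a mean log2 ratio of 1.15 and a dim control channel. With the control at the lowest signal well above background, array 1 gives 2.27-fold, which is not a lower limit. Abhd5, a lipase cofactor, lay at 0.69 and was not called. The median of the barrier list was 0.45, and it turned to -0.0034 with the spike-in offset, where Abca12 lay at 0.79 and 0.59 and lost its call and Cers4 was the 1 gene of 7 called.

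**Figure D4:**
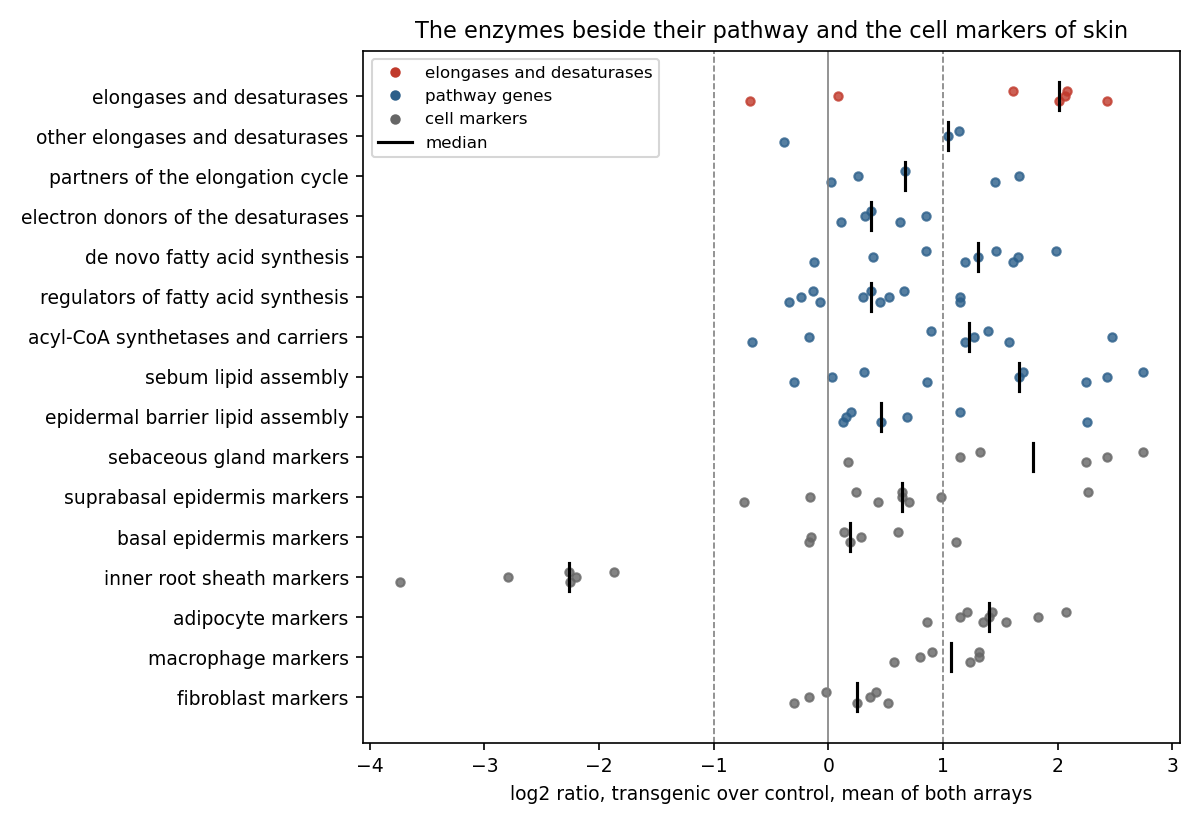
Mean log2 ratio of transgenic over control (horizontal) of every measured gene of the family (red), of the listed pathway genes (blue) and of the listed cell markers (grey), with a black bar at each list's median and dashed lines at 2-fold. The median of the elongases and desaturases, 2.01, lies above those of all listed sets. Next are the sebaceous gland markers, 1.78, and sebum lipid assembly, 1.66 (set by Dgat1, dim in the control), which share 3 measured genes. The adipocyte markers, 1.40, and de novo fatty acid synthesis, 1.30, follow. The inner root sheath markers lie at -1.87 or lower.

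Markers of several skin compartments moved with these enzymes. Of 6 measured sebaceous gland markers 5 rose, with a median of 1.78, and their summed signal on array 1 was 51015 in the transgenic channel and 12393 in the control channel. The defining markers Mc5r, Awat2 and Far2 were not well above background in either channel, and 3 of the 6 measured genes (Cidea, Fa2h and Soat1) also stand in the sebum list. Of 9 measured adipocyte markers 7 rose, Cfd at 4.22-fold and Cidec at 3.55-fold, and the summed signal was 379077 in the transgenic channel and 122017 in the control channel. Most of that sum was Fabp4 (named after its value was seen), with 231178 in the transgenic channel and 75394 in the control channel. With the spike-in offset 3 of the 6 sebaceous and 3 of the 9 adipocyte markers were called higher, with Cfd and Cidec among the adipocyte ones. Both compartments express Scd1 and Elovl6, and their part in the result was not tested.

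Most epidermal markers were not called, as held for the genes measured in all, of which 3.72% were higher. Of 9 suprabasal genes 1 rose, Krt1 at 4.79-fold, with Krt10 at 1.98-fold and not called, and the median was 0.64 (0.18 with the spike-in offset). Of 7 basal genes 1 rose, Krt14 at 2.17-fold, and the basal median was 0.19. With the spike-in offset Krt14 lost its call, leaving 0 of 7, and the basal median turned to -0.27. The 6 measured markers of the inner root sheath were all lower (median -2.26). Trichohyalin (Tchh) lay at -2.79, and Krt26, dim in the transgenic channel, had a measured mean of -3.73. With the transgenic signal of Krt26 at the lowest one well above background, array 1 gives 6.51-fold lower, which is not a lower limit of the difference. The summed inner root sheath signal was 57357 in the transgenic channel and 285196 in the control channel. Elovl3, which mouse hair follicles also express, was thus higher while these follicle markers were lower.

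Of 6 measured macrophage markers 3 rose, with a median of 1.07, among them Adgre1 at 2.48-fold and C1qa. The control channel of C1qa was dim on array 1. With the lowest signal well above background in its place, array 1 gives 1.75-fold, which is not a lower limit. None of the macrophage markers was called with the spike-in offset (0 of 6). Of 7 fibroblast markers none (0) was called, with Lum at 0.52 and Col3a1 at 0.42, and the fibroblast median of 0.25 turned to -0.21 with the spike-in offset. The part of these compartments in the result was not tested.

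**Figure D5:**
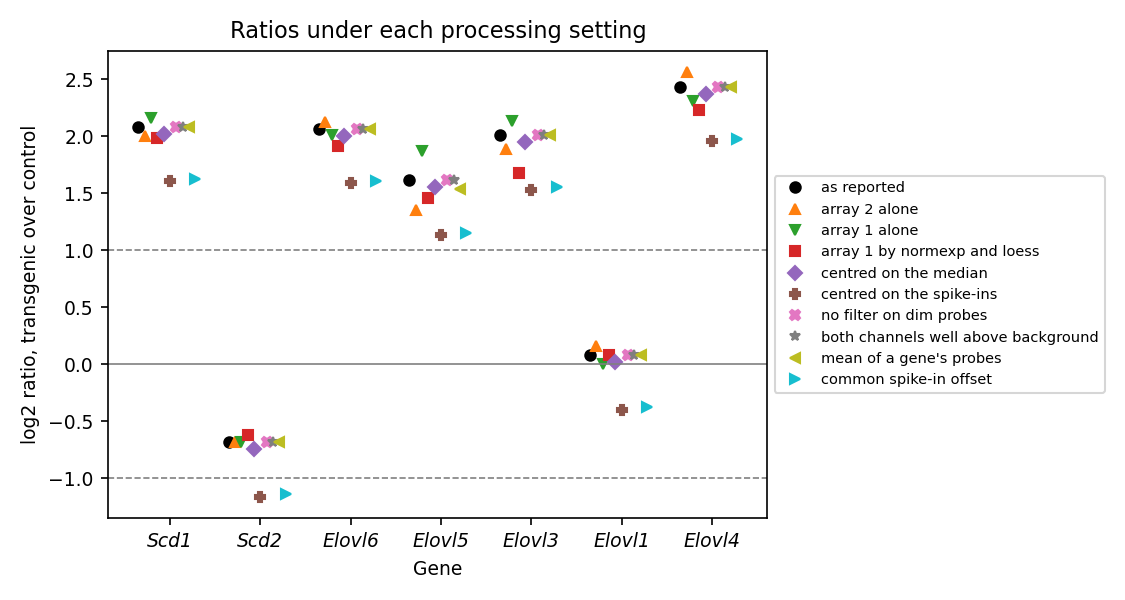
Mean log2 ratio of transgenic over control of each of the 7 measured enzymes as reported and under 9 other processing settings, with dashed lines at 2-fold. Scd1, Elovl3, Elovl4 and Elovl6 stay above the upper line, Elovl5 stays above it by its mean, and Scd2 crosses the lower line with the spike-in settings.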

How the data were processed

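Total RNA (500 ng per labelling) of whole skin was labelled with Cy3 or Cy5 and hybridised to 2 arrays, per the labels' protocols. Agilent Feature Extraction 9.5.1.1 made the deposited intensity values of array 1 by background subtraction, spatial detrending, linear and LOWESS dye normalisation and surrogates for dim values, per the file headers. Surrogates narrow the ratios of dim probes. The deposited log10 ratios of the value table equalled log10 of Cy5 over Cy3 intensity on array 1 (largest difference 5e-10). On array 2 the scale and direction were inferred from the dye exchange, the deposited columns having a correlation of -0.579 across 41534 features. Their log10 medians over these features were 0.0141 and -0.0234, so neither was centred at 0 over all features. Over the 10454 genes measured, the median log2 ratios of transgenic over control were 0.0009 on array 1 and -0.0041 on array 2. For array 2 only the value table entered.

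Values were converted to log2, and array 2 was turned to transgenic over control. Controls and 29 spots with outlier flags were dropped, and repeated spots averaged. A gene's brightest probe stood for it, among those that array 1 measured well above background in either channel. No spot other than controls (0) was saturated on array 1. Probes were named through a RefSeq table (GRCm38.p6) by accession (24370), symbol (6300) or synonym (2425), with the array's own name for 8072. Coordinates of probes are those of the array design, mm8.

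Named genes are the family, Pla2g2f, up to 3 genes of largest absolute mean per pathway list and 2 per marker list. The members and lists were chosen with earlier results of these data known. Alternatives used limma 3.58.1 (normexp, offset 50, then loess, array 1), Python 3.11.15 and R 4.3.3. Each array has its own dye orientation, so slide, scan and dye cannot be told apart, and the number of arrays limits the precision.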

Additional observations from a re-analysis of the deposited data

How the results depend on the processing

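Scd1, Elovl3, Elovl4 and Elovl6 were called higher as reported and under each of 9 other settings, with lowest means of 1.60, 1.53, 1.95 and 1.59. Elovl5 was called as reported and in 7 of the 9, and its means ranged from 1.13 to 1.87. On array 1 alone the median of the family was 2.01, with 568 higher and 274 lower genes. On array 2 alone it was 1.89, with 520 higher and 259 lower genes. With array 1 from normexp and loess the family's median was 1.68, and 107 genes were higher and 56 lower. Some genes named from the lists then lost their call. Array 1 gave 0.85 for Pparg, 0.83 for Degs1, 0.82 for Hsd17b12 and 0.52 for Adgre1. It gave 0.45 for Dgat1, 0.34 for Abca12 and 0.21 for C1qa. Hacd2, Cidea, Fa2h, Soat1, Cers4, Krt1, Krt14, Cfd and Cidec kept theirs. With arrays centred on their spike-ins, 4 members were higher and 1, Scd2, was lower, with a median of 1.53, and 159 genes were higher and 454 lower. With 1 common spike-in offset, a setting chosen after seeing the data because the spike-in mixes carry designed ratios, these were 4, 1, 1.55, 176 and 457. Of all calls, 27.8% were then higher ones, against 68.8% as reported. Without the filter on dim probes all 10 members entered, with a median of 1.21. Probes well above background in both channels left 243 higher and 86 lower genes. Scd1, Elovl3, Elovl4, Elovl5 and Elovl6 stayed above 0 under each of these settings. Elovl1, which was not called under any of them, turned sign, from 0.08 as reported to -0.0021 on array 1 alone, -0.40 centred on the spike-ins and -0.38 with the common offset. No paired analysis was possible because there is 1 group of 2 arrays. Dim signal limits Scd3, Fads1 and Fads2, and surrogates can compress their ratios.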
